A study of Mus musculus with 6 samples.

Results

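The VEGF ligands and receptors were represented by 14 of the 45037 probe sets tested, namely all those annotated to Vegfa, Vegfb, Vegfc, Pgf, Kdr, Flt1 or Flt4. A probe set is a group of short array probes designed against 1 transcript region. The 7 members were among 18193 genes named by the array. The 4 ligand genes had 7 probe sets and the 3 receptor genes had 7, and 0 probe sets named a member together with another gene. RNA came from the femoral shafts of 3 male C57BL/6 mice aged 8 weeks, all given saline intraperitoneally, with 3 endosteal and 3 central arrays lettered A, B and C. Central RNA was that of the marrow cells washed out of the shaft and pelleted. Endosteal RNA was whatever Trizol, a lysis reagent, then released from the emptied shaft, so it is defined by where it came from and not by a cell type.

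Members of the VEGF family are secreted growth factors for blood and lymphatic vessels and act through receptor tyrosine kinases found mainly on endothelial cells. VEGF-A binds the receptors encoded by Flt1 and Kdr, VEGF-B and placental growth factor bind that of Flt1, and VEGF-C binds that of Flt4 and, after cleavage, that of Kdr. In bone marrow the Kdr and Flt4 receptors mark the sinusoidal endothelium, and VEGF-A from bone-forming cells and hypertrophic chondrocytes links vessel growth to bone growth.

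Vegfc had the 2 largest log2 changes of the family. All 3 of its probe sets were called higher in endosteal RNA, by 1.63 to 3.00 on the scale of log2(signal + 16), and the other 11 probe sets did not pass the test. Kdr, the brightest Flt1 probe set and the brightest Flt4 probe set had all endosteal arrays above all central arrays, with log2 changes of 1.16 to 1.80, but adjusted p of 0.0579 to 0.0728 and so no call. Vegfa had log2 changes of 0.52 and 0.60 and Vegfb one of 0.07, and neither passed.

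Of the 14 probe sets, 3 were called higher (3.21% of all probe sets were) and 0 lower (1.29% of all), where a call is a limma adjusted p under 0.05. At an unadjusted p under 0.05, 9 were higher (13.3% of all) and 0 lower (9.42% of all). In 9 of the 14 the 3 endosteal arrays all lay above the 3 central ones (17.8% of all), and in 0 all below (13.6% of all). All 14 changes were positive, where 55.7% of all probe sets had a positive change. Their median log2 change was 1.03, against 0.08 for all probe sets. Probe sets of 1 gene share their transcript and are not independent of each other. All log2 changes here are of log2(signal + 16), a scale that understates the changes of dim probe sets, and 4 of the 14 had a mean signal below the median of all probe sets.

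**Figure D1:**
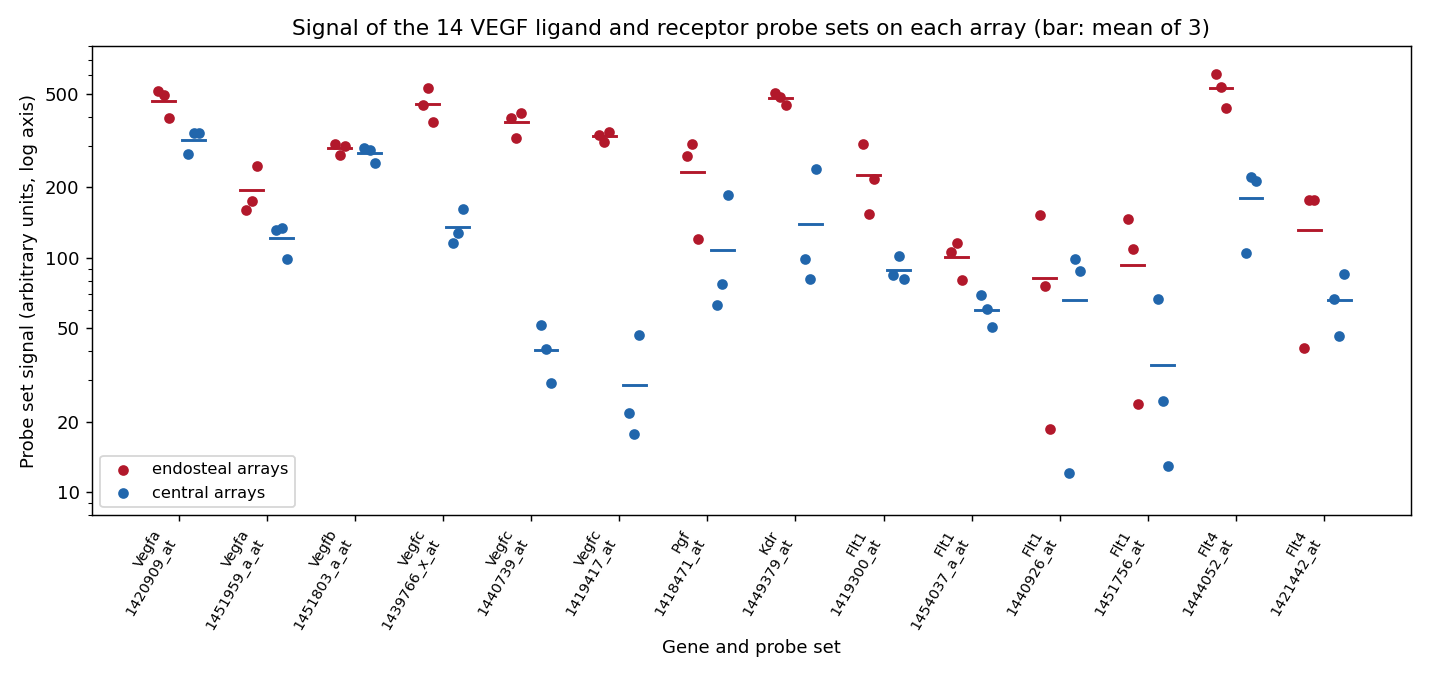
Signal of each VEGF ligand and receptor probe set on each array, on a log axis, with endosteal arrays in red to the left of central arrays in blue; bars are means of 3 arrays. The groups of points do not overlap in 9 of the 14 probe sets, and the widest gaps are those of Vegfc 1419417_at and 1440739_at.

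Vegfc encodes the ligand of the lymphatic and sinusoidal receptor Flt4. Its probe set 1419417_at had signals, in the order of the letters, of 334, 311 and 345 in endosteal RNA, against 21.9, 17.8 and 46.7 in central RNA. The lowest endosteal array was far above the highest central one, and each central signal was below its array's median. The mean was 330.03 ± 17.6 in endosteal RNA and 28.8 ± 15.6 in central RNA (SD, n = 3 each), a log2 change of 3.00 (SE 0.27, limma adjusted p = 0.00863). Probe set 1440739_at had 396, 324 and 413 in endosteal RNA, against 51.8, 40.7 and 29.3 in central RNA. Here too the regions did not overlap, with a log2 change of 2.81 (SE 0.21, limma adjusted p = 0.00603). The third probe set, 1439766_x_at, had 449, 528 and 381 on the endosteal arrays and 116, 128 and 162 on the central ones. It changed by 1.63 (SE 0.20, limma adjusted p = 0.0186), less than the others and from a brighter central signal. The x in its name marks probes that may also bind transcripts of other genes. The study's own measure, the log2 ratio of the mean signals, was 3.52, 3.22 and 1.74 for these probe sets in the order given.

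The Vegfc calls depended on the treatment of the arrays. With the array letter as a replicate block, 0 of the 45037 probe sets were called (5532 higher and 3693 lower at an unadjusted p under 0.05). The adjusted p of Vegfc was then 0.0908 for 1419417_at and 1440739_at and 0.114 for 1439766_x_at. Without central array A, 1419417_at had an adjusted p of 0.0511. Without endosteal A, endosteal B, central A or central B, 1439766_x_at had 0.0561, 0.0551, 0.0734 and 0.0799, in that order, while 1440739_at passed without any 1 array.

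Vegfa encodes the main growth factor of blood vessels, which hypoxia induces. Probe set 1420909_at had signals of 512, 495 and 394 in endosteal RNA, against 277, 341 and 339 in central RNA. Probe set 1451959_a_at had 161, 175 and 247 on the endosteal arrays and 132, 134 and 98.5 on the central ones. For both, every endosteal array lay above every central one. Their log2 changes were 0.52 (SE 0.18) and 0.60 (SE 0.22), with limma adjusted p of 0.165 and 0.189. When probe sets below the median level were left out, the first passed (adjusted p = 0.0464) and the second did not (0.0639). Of the 22518 probe sets in that fit, 2916 were called higher. The first passed in 2 of 16 alternatives and the second in 1 of 15.

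Vegfb, a ligand of Flt1 with a role in heart and fat tissue, showed little difference. Its signals were 307, 274 and 299 in endosteal RNA and 295, 288 and 254 in central RNA, so that the regions overlapped. The log2 change was 0.07 (SE 0.15, limma adjusted p = 0.829), and it became -0.19 when each array was centred on its median. Pgf, which encodes placental growth factor, varied within both regions. It had 272, 304 and 121 in endosteal RNA, against 62.9, 77.2 and 184 in central RNA, where endosteal array C was the low one and central array C the high one. Its log2 change of 1.03 had an SE of 0.49 and did not pass (limma adjusted p = 0.279). The fifth ligand gene Vegfd, which was not among the members, had 3 dim probe sets with changes from -0.36 to -0.06, all with overlapping arrays (lowest adjusted p = 0.483).

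The stretches of 250 bases before the RefSeq transcription start (GRCm38.p6) of Vegfc and of the receptor genes are shown because these genes had the largest differences between the regions in the family. Capitals mark matches on either strand to AGGAAG, a core of ETS factor sites, to TGACGTCA, the cAMP response element, and to ACGTG and GCGTG, cores of hypoxia response elements that share the letters CGTG. Each is written from 5′ to 3′ on the strand of its gene.
Vegfc, chr8:54077282-54077531, plus strand: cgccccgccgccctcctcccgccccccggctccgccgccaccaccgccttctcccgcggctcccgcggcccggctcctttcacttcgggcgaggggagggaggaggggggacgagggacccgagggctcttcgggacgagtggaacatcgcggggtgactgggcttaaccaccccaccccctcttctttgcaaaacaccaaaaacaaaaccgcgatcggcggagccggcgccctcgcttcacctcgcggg
Kdr, chr5:75978456-75978705, minus strand: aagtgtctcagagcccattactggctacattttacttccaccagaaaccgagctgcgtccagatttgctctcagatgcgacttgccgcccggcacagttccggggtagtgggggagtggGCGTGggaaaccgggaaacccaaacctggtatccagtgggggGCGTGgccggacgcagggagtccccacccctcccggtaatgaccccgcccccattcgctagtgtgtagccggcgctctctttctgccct
Flt1, chr5:147726012-147726261, minus strand: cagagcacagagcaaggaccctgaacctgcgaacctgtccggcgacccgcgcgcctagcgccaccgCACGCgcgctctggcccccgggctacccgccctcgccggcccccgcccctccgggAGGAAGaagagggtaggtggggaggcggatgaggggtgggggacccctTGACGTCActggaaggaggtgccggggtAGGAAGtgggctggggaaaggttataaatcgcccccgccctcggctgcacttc
Flt4, chr11:49609429-49609678, plus strand: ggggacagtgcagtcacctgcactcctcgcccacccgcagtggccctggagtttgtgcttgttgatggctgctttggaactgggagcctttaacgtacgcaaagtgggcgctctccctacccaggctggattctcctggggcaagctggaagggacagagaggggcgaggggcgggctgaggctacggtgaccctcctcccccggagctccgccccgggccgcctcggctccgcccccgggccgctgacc

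The Flt1 window held 2 matches to AGGAAG, which 29.5% of all 32851 such windows hold, and 1 to TGACGTCA, which 1.55% hold. It also held 1 match to GCGTG, of which the Kdr window held 2, and 28.2% of windows hold that core. The Vegfc and Flt4 windows held no match to these letters, nor did any of the 4 hold ACGTG (16.6% of windows). Among the genes not shown, Vegfb had 2 matches to GCGTG and window 1 of Pgf had 1. Window 2 of Vegfa had 1 match to GCGTG and 1 to ACGTG. A match describes the letters and not a used site.

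Kdr encodes the receptor that carries most of the growth signal of VEGF-A in endothelium. It had signals of 504, 482 and 448 in endosteal RNA, against 98.5, 81.4 and 240.1 in central RNA. The endosteal arrays lay close together and above the central ones, of which array C was the highest. The mean was 478 ± 28.1 in endosteal RNA and 140.01 ± 87.1 in central RNA (SD, n = 3 each). The log2 change of 1.80 (SE 0.38) did not pass (limma adjusted p = 0.0612). Without central array C the change was 2.22 and passed (adjusted p = 0.0255). Leaving out each of the other arrays in turn gave changes of 1.53 to 1.84, and Kdr did not pass (adjusted p of 0.118 to 0.181).

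Flt4 encodes the receptor of VEGF-C. Probe set 1444052_at had 610.2, 537 and 435 in endosteal RNA, against 104, 222 and 212 in central RNA, without overlap. Its log2 change was 1.53 (SE 0.32, limma adjusted p = 0.0579). The dimmer 1421442_at had 41.2, 176 and 176 on the endosteal arrays and 66.5, 46.5 and 85.03 on the central ones. Endosteal array A was the lowest of all 6 there, and the change of 0.67 had an SE of 0.53 (adjusted p = 0.505).

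Flt1 encodes a receptor that binds VEGF-A tightly but signals weakly, and a secreted form of it acts as a decoy. Its brightest probe set, 1419300_at, had 307, 154 and 217 in endosteal RNA, against 84.1, 102 and 81.3 in central RNA, without overlap, and changed by 1.16 (SE 0.27, limma adjusted p = 0.0728). Probe set 1454037_a_at had 106, 116 and 80.4 on the endosteal arrays and 69.5, 60.3 and 50.7 on the central ones (log2 change 0.61, SE 0.19, adjusted p = 0.140). These 2 probe sets did not overlap between regions. The other Flt1 probe sets did, with 152, 75.5 and 18.6 in endosteal RNA and 12.1, 98.6 and 88.01 in central RNA for 1440926_at. For 1451756_at the signals were 146, 109 and 23.9 in endosteal RNA and 66.9, 24.4 and 12.95 in central RNA. Their changes of 0.22 (SE 0.78) and 1.02 (SE 0.65) lay within the spread of the arrays, with adjusted p of 0.897 and 0.413. Which forms of Flt1 the probe sets detect was not analysed here.

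Of the 7 receptor probe sets, 0 were called by limma and 4 had an unadjusted p under 0.05. The brightest receptor probe sets passed under some other settings and failed under more. Kdr passed in 6 of 16 alternatives, and Flt1 1419300_at and Flt4 1444052_at in 5 of 16 each. All of these failed with pseudocount 1, quantile normalisation, median centring, the replicate block and the random block. With pseudocount 64 and all probe sets tested, Kdr, Flt1 1419300_at and Flt4 1444052_at had adjusted p of 0.0236, 0.0459 and 0.0224, and with an intensity trend 0.00411, 0.0412 and 0.00364. Of all 45037 probe sets, 2382 and 3420 were called higher in these settings, against 1444 in the main fit. In a fit on the brightest probe set of each of 18193 genes, Kdr, Flt1 and Flt4 passed with adjusted p of 0.0386, 0.0437 and 0.0351, and 7.92% of all genes were called higher. In that fit Vegfc, there represented by 1439766_x_at, had 0.00928, and Vegfa, Vegfb and Pgf did not pass.

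**Figure D2:**
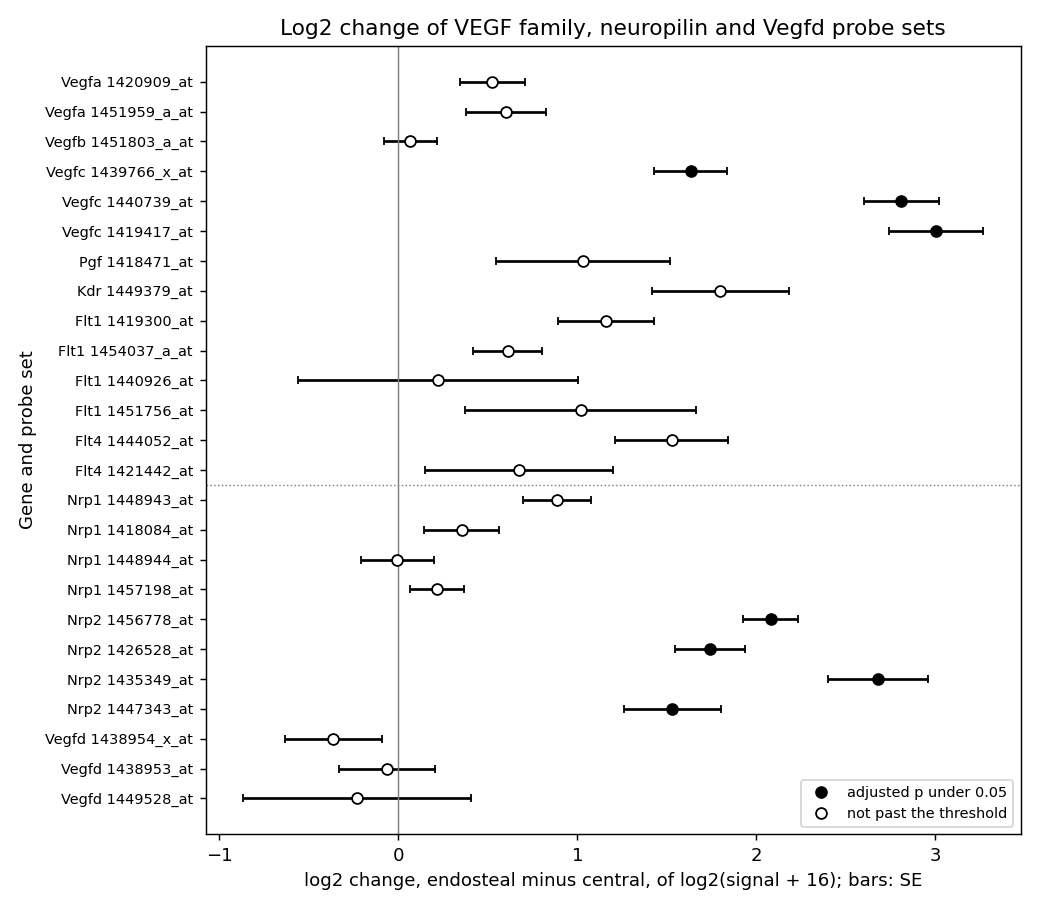
Log2 change of each probe set, endosteal minus central, with its SE, for the VEGF family above the dotted line and for the neuropilin genes and Vegfd below it; filled points have an adjusted p under 0.05. The filled points are the 3 probe sets of Vegfc and the 4 of Nrp2, at 1.53 to 3.00.

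The neuropilins are co-receptors that bind VEGF ligands and semaphorins. All 4 probe sets of Nrp2, the co-receptor for VEGF-C in lymphatic vessels and veins, were called higher. The brightest, 1456778_at, had signals of 1037, 967 and 1097 in endosteal RNA, against 221, 218 and 259 in central RNA, a log2 change of 2.08 (SE 0.15, limma adjusted p = 0.00603). The other Nrp2 changes were 2.68, 1.74 and 1.53 (adjusted p = 0.0127, 0.0145 and 0.0410). The 4 probe sets of Nrp1, the co-receptor for VEGF-A, had changes from -0.00476 to 0.89 and did not pass. The largest, in the brightest probe set 1448943_at, had 2011, 2172 and 1884 in endosteal RNA and 1302, 898 and 1092 in central RNA (adjusted p = 0.0624).

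Bulk RNA cannot tell more endothelial cells from more RNA per cell. Of 18 endothelial marker genes outside the VEGF family, 11 were called higher in endosteal RNA (4.67% of 18193 genes were, each by its brightest probe set). The median of the list was 1.48 on the log2 scale, against 0.10 over all genes. Their summed signal was 8545 to 9858 on endosteal arrays and 2966 to 3923 on central arrays. Emcn, the endomucin gene of sinusoids and veins, changed by 2.77 and Tek, the angiopoietin receptor gene, by 2.44, while Pecam1 and Cdh5, at 0.55 and 0.61, did not pass. Of 6 genes listed for sinusoids 4 were called, all higher (Stab1, Vcam1, Il6st and Lepr), with a list median of 1.26. Stab2 at 1.41 (adjusted p = 0.0540) and Fcgr2b at 0.04 did not pass. Whether the called genes stand for sinusoid cells alone was not tested. Of 5 measured lymphatic genes 1 was called, Mmrn1 at 1.75, which platelets also carry. Reln of the same list changed by -0.99, with every endosteal array below every central one, and did not pass (adjusted p = 0.106). Prox1, the defining factor of lymphatic endothelium, had 55.4 ± 33.9 in endosteal RNA and 29.8 ± 14.8 in central RNA, with overlapping arrays (adjusted p = 0.459).

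The change of the receptors was set against those 18 genes on the same array, as log2(signal + 16) minus the list's mean, a measure chosen after the data were seen and given with no test. For Kdr this was 0.09 ± 0.05 in endosteal RNA and -0.12 ± 0.57 in central RNA (SD, n = 3 each), and for Flt4 1444052_at it was 0.22 ± 0.12 in endosteal RNA and 0.28 ± 0.39 in central RNA. Both overlapped between the regions, with differences of 0.21 for Kdr and -0.06 for this Flt4 probe set. The brightest Flt1 probe set had -0.98 ± 0.40 in endosteal RNA and -0.56 ± 0.31 in central RNA, also with overlap. The other Flt1 and Flt4 probe sets differed by -1.36 to -0.57, of which Flt1 1454037_a_at, at -0.97, did not overlap. Vegfc 1419417_at was at -0.42 ± 0.16 in endosteal RNA and -1.84 ± 0.31 in central RNA, without overlap, a difference of 1.42, and 1440739_at differed by 1.23. The difference was 0.05, with overlap, for 1439766_x_at. The list's mean was itself 1.58 higher in endosteal RNA, so any probe set that changed by less lies lower on this measure by construction. That held for Vegfa and Vegfb, with differences of -1.06 and -0.98 for the probe sets of Vegfa and -1.52 for Vegfb, and no overlap. In plain signal every endosteal Vegfa array lay above every central one. How many of all probe sets lack overlap on this measure was not counted. Pgf differed by -0.55 with overlap.

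**Figure D3:**
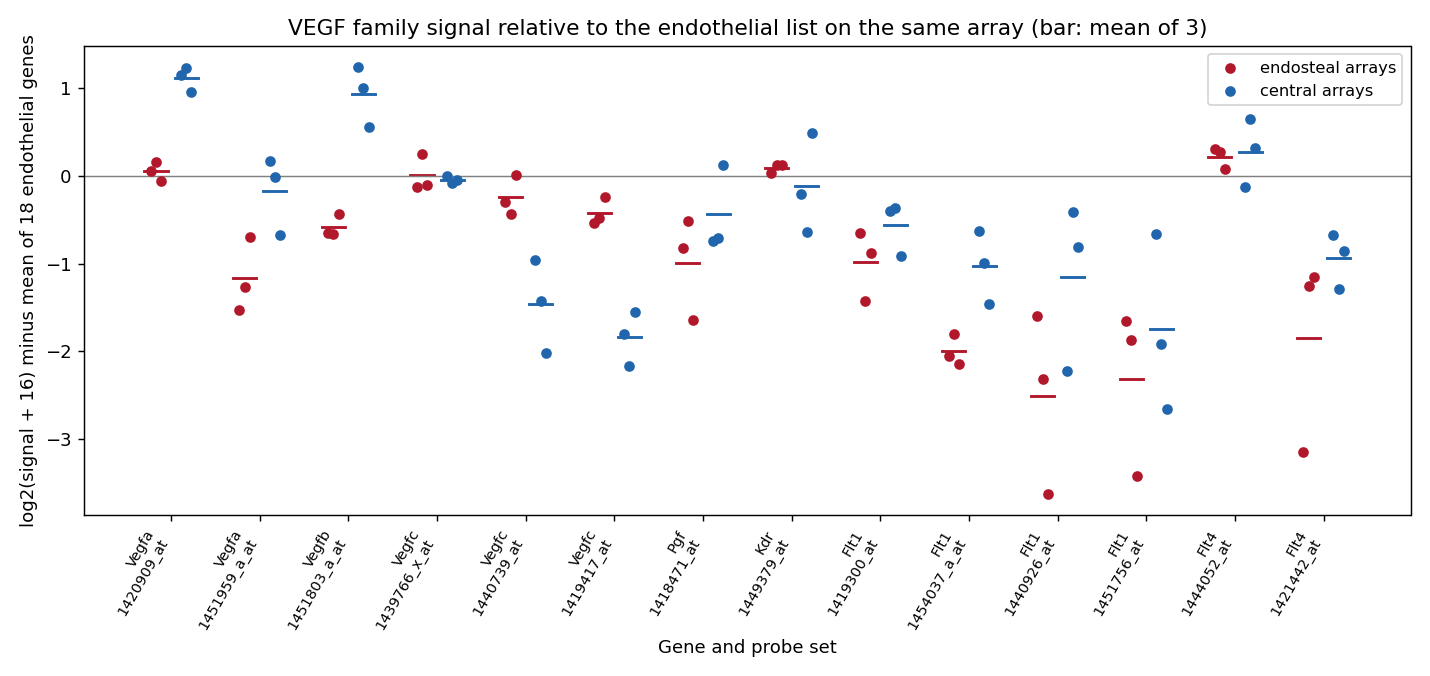
Log2(signal + 16) of each VEGF family probe set minus the mean of 18 endothelial genes on the same array, endosteal in red left of central in blue, bars for means of 3 arrays. Kdr and Flt4 1444052_at overlap between regions near 0, Vegfc 1419417_at and 1440739_at are higher in endosteal RNA, and both Vegfa probe sets, Vegfb and Flt1 1454037_a_at are lower. The list's mean is itself 1.58 higher in endosteal RNA, so probe sets that change by less lie lower here by construction.

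Other cell types also differed between the same arrays, and their part in the differences of the VEGF genes was not tested. Of all 18193 genes, each by its brightest probe set, 4.67% were called higher and 1.52% lower. The shafts had been rubbed clean of muscle and periosteum, per the labels' protocols, and all 12 skeletal muscle genes were called higher in endosteal RNA, with summed signals of 70404 to 139556 on endosteal arrays and 951 to 1228 on central arrays. For osteoblasts, 8 of 9 measured genes were higher (sums of 84311 to 101964 in endosteal RNA and 2143 to 2870 in central RNA), and 4 of 9 cartilage genes were (3560 to 6732 in endosteal RNA, 322 to 397 in central RNA). Pericyte genes had 3 of 8 (6777 to 11341 in endosteal RNA, 1162 to 1639 in central RNA) and megakaryocyte genes, of cells known to make VEGF-A, 4 of 8 measured (91841 to 107322 in endosteal RNA, 24471 to 48308 in central RNA). Macrophage genes had 5 of 9 (29323 to 34985 in endosteal RNA, 18113 to 18565 in central RNA) and neutrophil genes 2 of 9 (540629 to 559537 in endosteal RNA, 356205 to 390571 in central RNA). Mmp8 of the neutrophil list went the other way, at -0.77, with every endosteal array below every central one, and did not pass (limma adjusted p = 0.0731). No marker of these lists was listed at 0.

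Genes that act downstream of the VEGF receptors changed in both directions. Of 24 measured signalling genes, 4 were called higher and 1 lower (4.67% and 1.52% of 18193 genes were), with a median log2 change of -0.08. The higher ones were Hspb1 at 2.59, a small heat shock protein that muscle also expresses, Ptprb at 2.38, an endothelial phosphatase that restrains Kdr and Tek and stands in the endothelial list too, Dab2 at 2.07, an endocytic adaptor, and Gab1 at 1.19, a docking protein (adjusted p = 0.0234, 0.00911, 0.0105 and 0.0377). Prkcb, a protein kinase C of B cells and other blood cells, had 2717 ± 39.8 in endosteal RNA and 5290.4 ± 376 in central RNA and fell by 0.96 (adjusted p = 0.0276). The phospholipase gene Plcg1, which Kdr activates, had 482 ± 41.6 in endosteal RNA and 445 ± 118 in central RNA (log2 change 0.14, adjusted p = 0.765).

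Of 10 genes that VEGF induces in endothelial cells, 3 were called, all higher (4.67% of 18193 genes were), and the median was 0.29. Esm1, a secreted proteoglycan of sprouting vessels, had 445 ± 30.2 in endosteal RNA and 109.5 ± 38.0 in central RNA, a log2 change of 1.92 (SE 0.24, limma adjusted p = 0.0191). Angpt2, the antagonist ligand of Tek, changed by 1.66 (adjusted p = 0.0367) and Rcan1, an inhibitor of calcineurin, by 0.94 (adjusted p = 0.0356). The immediate early genes Egr3, Nr4a1 and Nr4a2 were at 0.09, -0.38 and 0.44 and did not pass. Every endosteal array lay below every central one for Nr4a1 and above for Nr4a2. Dll4 at 1.34 and Dusp5 at -0.73 did not pass either (limma adjusted p = 0.273 and 0.410).

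Hypoxia sensing genes act upstream of Vegfa, and hypoxia target genes are induced beside it. Of 10 sensing genes 2 were called higher and 0 lower (4.67% and 1.52% of 18193 genes were), with a median of -0.24. Epas1, the hypoxia factor of endothelium, had signals of 4140.2, 3808 and 2842 in endosteal RNA, against 433, 652 and 808 in central RNA, a log2 change of 2.51 (SE 0.28, adjusted p = 0.0154). Arnt2, a dimer partner, changed by 1.65 from a dim central signal (20.9 ± 8.23, adjusted p = 0.0330). Hif1a had 2471 ± 106 in endosteal RNA and 2262 ± 102 in central RNA (log2 change 0.13, adjusted p = 0.647). Of 14 measured targets, 0 were called by limma, with a median of 0.17. At an unadjusted limma p under 0.05, 2 were higher (13.3% of all probe sets were) and 0 lower (9.42% of all probe sets). The 2 higher ones were P4ha1 at 0.98 and Ldha at 0.54 (limma adjusted p = 0.0879 and 0.105), both without overlap between the regions. Ankrd37, at -0.45, had every endosteal array below every central one (adjusted p = 0.290). Pgk1, a glycolytic enzyme, was at -0.01 and Slc2a1, a glucose transporter, at -0.18.

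Of 11 measured genes whose products bind, free or trap VEGF in the matrix, 5 were called higher and 1 lower. The shares of all 18193 genes were 4.67% and 1.52%. The list's median log2 change was 1.99. Sparc, a bone matrix protein that also stands in the osteoblast list, changed by 4.82, Ccn2, which binds VEGF-A, by 3.96 and the gelatinase Mmp2 by 3.36 (adjusted p = 0.00333, 0.0174 and 0.0159). Timp3, which blocks binding of VEGF-A to Kdr, changed by 2.10 (adjusted p = 0.0182). Mmp9, a protease that frees bound VEGF-A and is abundant in neutrophils, had 11226 ± 241 in endosteal RNA and 22874 ± 4069 in central RNA and fell by 1.01 (adjusted p = 0.0408). The pathway and marker lists had 0 genes called with the replicate block.

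**Figure D4:**
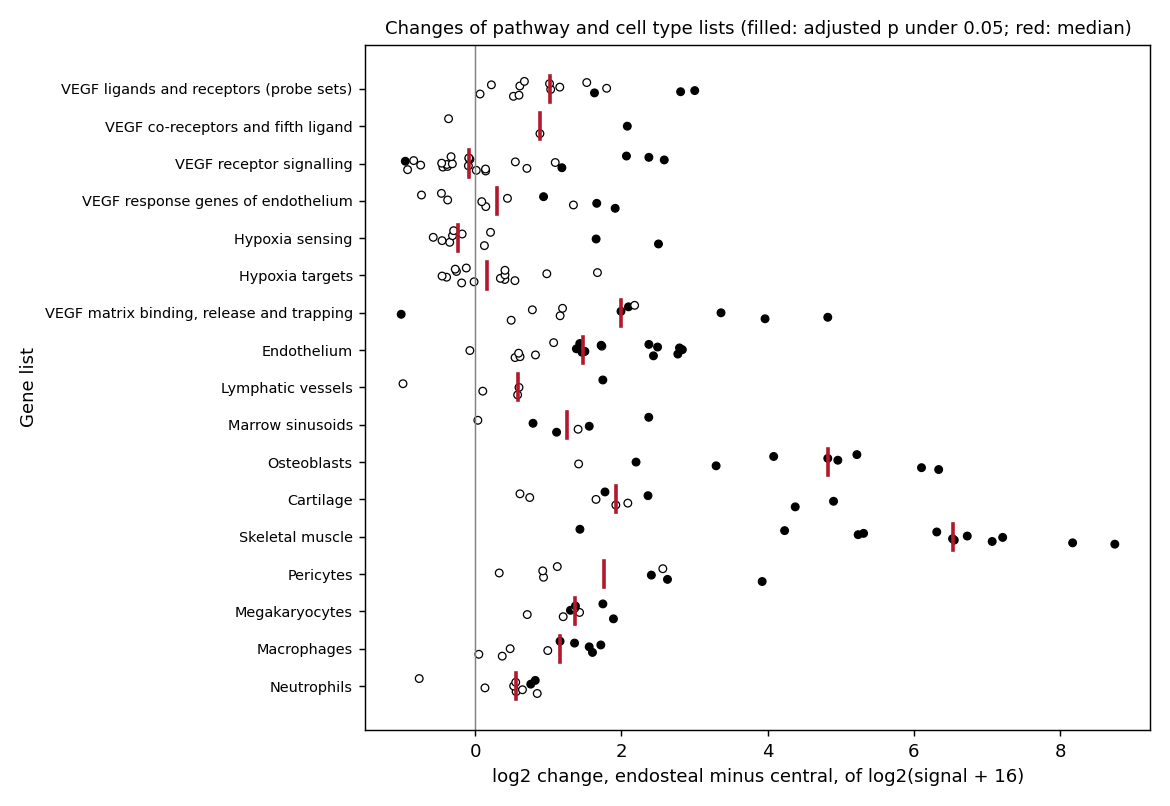
Log2 change, endosteal minus central, of each VEGF family probe set (top) and of each gene of the pathway and cell type lists; filled points have an adjusted p under 0.05 and red bars are medians. The VEGF family median of 1.03 over probe sets lies between the list medians nearest to it, those of co-receptors (0.89) and macrophages (1.16). Hypoxia targets are at 0.17, endothelial genes at 1.48 and skeletal muscle genes at 6.54. The lists use 1 probe set per gene, and by that measure the family median is 1.16.

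The genes whose pattern over the 6 arrays was most like that of each member, by Pearson's r of the log2 values of brightest probe sets among 9096 genes above the median level, were as follows. For Vegfc, by 1439766_x_at, they were Septin4 and Bicc1 (r = 0.999 and 0.998), and for Kdr Ankrd23 and Tmtc3 (both r = 0.991). For Flt4 they were Prkag2 and Rhoj (0.998 and 0.997), and for Flt1 Mpo and Ctsg (both 0.994). For Vegfa they were Coq3 and Apod (0.998 and 0.992), for Vegfb Hspa4l and Letm1 (0.979 and 0.974), and for Pgf Mrpl32 and Brwd3 (both 0.979). These are the highest of many values over few arrays, which share the difference between regions, and describe these arrays only.

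The balance of calls across the series moved with the settings. In endosteal RNA 1444 probe sets passed upward and 582 downward, 71.3% of calls being higher. That share was 38.0% with each array centred on its median, where the median change of all probe sets was -0.18. It was 99.9% with poly-A spike controls as the scale, where that median was 1.08. With no change of scaling it was 51.7% among probe sets above the median level, 54.0% with the intensity trend, 82.7% to 85.6% without any 1 endosteal array and 95.9% to 97.7% without any 1 central array. The Vegfc changes were 1.37, 2.55 and 2.74 under median centring, from the smallest to the largest, and stayed called under both scalings. Median signals were 119 to 131 on endosteal arrays and 96.9 to 106 on central arrays.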

How the data were processed

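There were 6 arrays, 3 from each region. The authors deposited linear intensities, 1 signal per probe set, with equal trimmed means on all arrays as the values show. Which software summarised them and which genome build was used is not given in the sources used here. Labelling used an Affymetrix one-cycle kit and 2 micrograms of total RNA, per the labels' protocols. The 64 control probe sets were left out, and the other 45037 were fitted. Of these, 34945 named 1 gene through the platform annotation, 932 several and 9160 none here; 34741 matched RefSeq gene identifiers and 0 symbols changed.

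The fit was limma 3.58.1 in R 4.3.3 (lmFit, eBayes) on log2(signal + 16), region as the only term, two-sided, with Benjamini-Hochberg adjustment over all probe sets and a threshold of 0.05. It was tested on simulated data. For lists, a gene was its probe set of highest mean signal. Named genes were all members, up to 4 called genes of each pathway list in the commoner direction and up to 2 in the other, all co-receptor genes, and the most alike genes; others were named to describe a list, after their values were seen. The members and lists were chosen with earlier results of these data known.

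The 3 mice gave both regions, but no label ties a letter to a mouse. Endosteal and central arrays of 1 letter, each less its own region's mean, had Pearson correlations over probe sets of 0.04 (A), 0.03 (B) and 0.01 (C), and of 0.16, 0.07 and 0.04 over those above the median level. Neither set was over 0.1 for every letter, and the letter was a block only as an alternative. Where arrays do not stand for separate animals, p-values measure only the spread between arrays. The number of arrays limits the precision. Other alternatives were pseudocounts of 1 and 64, quantile normalisation, median centring, scaling to 24 poly-A control probe sets, a level filter, an intensity trend, a random block, 1 probe set per gene, and leaving out each array.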

Additional observations from a re-analysis of the deposited data

How the results depend on the processing

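The count of VEGF family probe sets called higher was 3 under pseudocount 1, quantile normalisation, median centring and the letter as a random block, and 4 in the fit on 1 probe set per gene, in which 7 were tested. It was 6 with pseudocount 64 and with an intensity trend (Vegfc, Kdr, Flt1 1419300_at and Flt4 1444052_at in both). Among probe sets above the median level it was 7 of the 10 tested, where 2916 of all 22518 were called higher. With poly-A control scaling it was 13 of 14, where 26226 of all 45037 were. The replicate block gave 0, and leaving out 1 array gave 1 (without central A) to 4 (without central C). The count called lower was 0 in each. All 14 members kept a positive change except Vegfb under median centring (-0.19) and Flt1 1440926_at under median centring (-0.04), quantile normalisation (-0.03), without endosteal A (-0.31) and without central A (-0.43), none of them called.

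Over all 45037 probe sets, the counts higher and lower were 857 and 232 with pseudocount 1, and 2382 and 1466 with pseudocount 64. They were 1117 and 596 with quantile normalisation, 1179 and 1927 after centring, and 26226 and 29 with poly-A scaling. The trend gave 3420 and 2913, the random block 1690 and 761, and the replicate block 0 and 0. Above the median level they were 2916 and 2725 of 22518, and with 1 probe set per gene 1441 and 731 of 18193. Leaving out 1 array gave 210 (without central B) to 868 (without endosteal C) higher, and 5 (without central B) to 181 (without endosteal C) lower. Fewer probe sets or arrays enter some of these fits by construction; otherwise the cause was not tested. Dim probe sets, such as 4 of the 14, limit what can be seen.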
